A study of Mus musculus with 72 samples.

Results

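Brain tissue taken 24 h into reperfusion after an experimental stroke was compared with brain tissue of sham mice, both fed ad libitum (AL). The 6 libraries are those whose titles give the 24 h stage or the sham stage together with AL feeding, replicates 1 to 3 of each, out of 72 libraries in the series. All were from C57BL/6 mice aged 7 months with food always present. In the 24 h group the middle cerebral artery had been occluded on 1 side for 1 h (MCAO) before blood flow returned, and a mid-coronal section of the cerebrum was dissected from the occluded side. What the sham procedure consisted of is not given in the sources used here. The other AL stages used for comparison were ischemia alone (1 h of occlusion without reperfusion) and 3, 12 and 72 h of reperfusion. The same 2 stages were also sequenced under 3 fasting regimens that lasted 4 months, namely every-other-day fasting (EOD, 24 h without food) and daily fasting of 12 h (IF12) or 16 h (IF16). Nothing in the labels says that replicates were separate animals, and the spread that p-values are measured against may therefore be technical.

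The middle cerebral artery supplies the lateral striatum and much of the lateral cortex, and its transient block in rodents typically produces a striatal and cortical infarct. In the day after blood flow returns, injured cells release danger signals, microglia and astrocytes turn on cytokine, chemokine and acute phase genes, and neutrophils followed by monocytes enter from the blood. Neurons of the infarct core die over the same period, while heat shock, antioxidant and p53 programs mark cells under stress.

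Library totals of the 6 libraries ran from 17343239 to 20814721 counts, with 19844 to 21207 genes detected and 2.57 to 4.29% of counts from mitochondrial genes. Levels are counts scaled to library size (CPM) after scaling with the trimmed mean of M values (TMM), listed for replicates 1, 2 and 3 in turn. Among the 24 h libraries, replicates 1 and 2 each stood apart in some measures. Replicate 2 had the most genes detected and the largest share of counts in its 10 leading genes (7.1%) of all 72 libraries. Markers of the thalamus summed to 184, 602 and 321 CPM in sham and 998, 198 and 161 CPM at 24 h, so that replicate 1 at 24 h was above all 5 others. Genes called higher at 24 h had a median log2 difference from the sham mean of 1.08 in replicate 1, against 1.45 and 1.48 in replicates 2 and 3. Sham replicate 2 was low in markers of striatal projection neurons, as given with those genes. Whether the dissected level differed between libraries is not given in the labels, and the part of regional composition in the results was not tested.

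Of 16452 genes tested with edgeR's quasi-likelihood test, 1161 (7.06%) passed a Benjamini-Hochberg adjusted p under 0.05, which is called changed here. Of these, 668 (4.06%) were higher and 493 (3%) lower at 24 h, and the median log2 fold change of all tested genes was -0.001. A change of at least 2-fold was found for 523 higher genes (3.18%) and 230 lower genes (1.4%). With 3 libraries against 3, the smallest p an exact permutation test of a single gene could give is 0.1, so the calls rest on the spread that the fit shares across genes and 18 AL libraries. The 3 and 3 libraries did not overlap for 4742 genes (28.8%), 2499 with 24 h above (15.2%) and 2243 with 24 h below (13.6%). Leaving out a library gave 1301, 434 and 466 calls without 24 h replicate 1, 2 and 3, and 486, 433 and 276 without sham replicate 1, 2 and 3, and 212 genes kept their call in all 6 of these fits. Tissue RNA cannot tell fewer cells of a type from less RNA per cell.

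Genes were ranked here if called, without overlap between groups and with a mean of at least 5 CPM in the higher group. Absence of overlap was thus a condition and not a result for them. Among these genes, those with the largest rises code for receptors, cytokines and acute phase proteins of inflammation, enzymes that act on proteins, and a protein-crosslinking transglutaminase. Values with ± after a log2 fold change are standard errors. Msr1, a scavenger receptor of macrophages, had 0.153, 0.052 and 0 CPM in sham and 12.6, 20.7 and 16.7 CPM at 24 h (log2 fold change 7.84 ± 1.30, edgeR adjusted p = 0.0037). Ccl2, the chemokine that draws in monocytes, had 0.102, 0 and 0.0924 CPM in sham and 4.5, 27.9 and 11.8 CPM at 24 h (7.67 ± 1.54, edgeR adjusted p = 0.00891). Ccl3, a chemokine made by microglia and macrophages, had 0.0511, 0.208 and 0.277 CPM in sham and 5.22, 25.3 and 5.02 CPM at 24 h (5.98 ± 1.54, edgeR adjusted p = 0.0285). Replicate 2 was the highest 24 h library for each of these 3 genes. Msr1 kept its call without any 1 library (edgeR adjusted p = 0.00356 to 0.034). Ccl2 lost it without sham replicate 3 (edgeR adjusted p = 0.053), and Ccl3 lost it without 24 h replicate 2 or any 1 sham library (up to 0.109).

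Il1rn, the secreted antagonist of the interleukin 1 receptor, was without reads in all 3 sham libraries and had 2.59, 24.1 and 8.12 CPM at 24 h. It was at least 77.8-fold higher, counting each sham library at a floor of 3 reads (edgeR adjusted p = 0.0128), and lost its call without sham replicate 3 (adjusted p = 0.0598). Ptx3, a soluble pattern recognition protein made by reactive astrocytes and other cells, had 0.409, 0.26 and 0.185 CPM in sham and 14.4, 38.7 and 24.8 CPM at 24 h (6.49 ± 0.97, edgeR adjusted p = 0.00237). Its 24 h libraries were all far above sham, and it kept its call without any 1 library. Il11, a cytokine that signals through gp130, had 0.256, 0.312 and 0.139 CPM in sham and 1.87, 18.6 and 49.1 CPM at 24 h (6.60 ± 1.57, edgeR adjusted p = 0.02). Replicate 1 at 24 h stood well below the other two for Il11, and the call was lost without 24 h replicate 3 or any 1 sham library (adjusted p up to 0.0994). Saa3, a serum amyloid acute phase protein, had 1 read over the 3 sham libraries and 0.527, 17 and 3.26 CPM at 24 h, a ratio of 381 with a 95% counting interval of 67.9 to 15090.0, which covers counting error only (edgeR adjusted p = 0.0158). Its level in 24 h replicate 1 was a small part of that in replicate 2, and the call was lost without 24 h replicate 2 or any 1 sham library (adjusted p up to 0.0834).

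Mmp3, the matrix metalloproteinase stromelysin 1, had 1 read over the sham libraries and 1.05, 8.6 and 10.3 CPM at 24 h, a ratio of 388 with a 95% counting interval of 69.3 to 15380.0 (edgeR adjusted p = 0.0188). Its call was lost without any 1 library other than 24 h replicate 1 (adjusted p up to 0.0934). Tgm1, a transglutaminase known for crosslinking proteins in the outer skin, had 0.358, 0.156 and 0.231 CPM in sham and 25.6, 47.8 and 75.5 CPM at 24 h (7.61 ± 1.12, edgeR adjusted p = 0.00218). Klk9, a kallikrein-related serine protease, had 3 reads over the sham libraries and 4.22, 8.54 and 18.2 CPM at 24 h, a ratio of 206 with a 95% counting interval of 70.3 to 1004 (edgeR adjusted p = 0.00121). Tgm1 and Klk9 rose in all 3 libraries at 24 h, with replicate 1 lowest and replicate 3 highest for each, and both kept their calls without any 1 library.

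**Figure D1:**
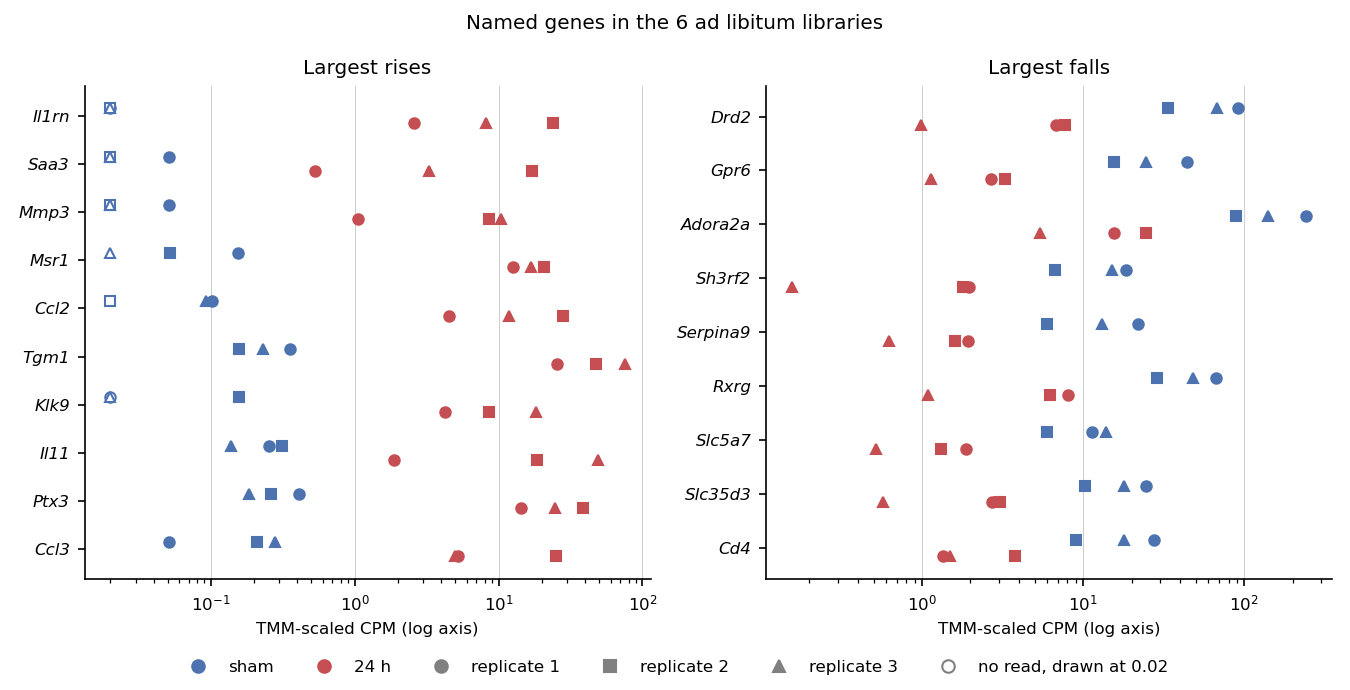
TMM-scaled CPM on a log axis of each sham and 24 h library for the 10 genes with the largest rises (left) and 9 of the 10 with the largest falls (right), with libraries without a read drawn open at the axis floor. Absence of overlap between groups and a mean of at least 5 CPM in the higher group were conditions for being shown. For several rises the 24 h libraries span far more than the sham libraries.

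Promoters of 4 of these 10 genes are shown because their genes rose together and each holds a short motif bound by factors of injury signalling. RefSeq's promoter table for GRCm38.p6, from 250 bases before to 50 after each start, matched 8 of the 10 genes. Msr1 and Ccl2 had no entry. Both strands were searched for 6 motifs, namely AP-1 (TGANTCA), STAT (TTCNNNGAA), NF-kB (GGGA, TT and CC with 1 base between them), ISRE (GAAA and GAAA with 2 bases between them), CRE (TGACGTCA) and HSE (GAA, TTC and GAA with 2 bases between them), where N stands for any base. Over all 32851 promoters of the table, 7.81% held AP-1, 8.3% STAT, 1.2% NF-kB, 3.44% ISRE, 1.79% CRE and 0.6% HSE. Some genes have several promoters. Of 27025 genes, 8.97% held AP-1, 9.55% STAT, 1.38% NF-kB, 3.99% ISRE, 2.03% CRE and 0.66% HSE in at least 1 promoter. Capitals mark the motifs, and no motif overlapped another in the 4 windows.
Il1rn, chr2:24336610-24336909, plus strand: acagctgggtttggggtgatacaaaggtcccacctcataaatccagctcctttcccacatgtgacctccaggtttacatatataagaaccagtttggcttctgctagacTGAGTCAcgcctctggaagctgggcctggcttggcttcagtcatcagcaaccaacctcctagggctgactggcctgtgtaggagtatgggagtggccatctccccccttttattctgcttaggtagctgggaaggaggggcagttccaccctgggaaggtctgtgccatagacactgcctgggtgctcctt
Saa3, chr7:46715627-46715926, minus strand: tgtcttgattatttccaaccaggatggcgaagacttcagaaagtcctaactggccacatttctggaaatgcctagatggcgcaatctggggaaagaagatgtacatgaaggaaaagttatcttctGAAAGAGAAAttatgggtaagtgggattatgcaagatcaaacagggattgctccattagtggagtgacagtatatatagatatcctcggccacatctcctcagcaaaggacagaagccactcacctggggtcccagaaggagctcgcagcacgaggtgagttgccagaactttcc
Mmp3, chr9:7445572-7445871, plus strand: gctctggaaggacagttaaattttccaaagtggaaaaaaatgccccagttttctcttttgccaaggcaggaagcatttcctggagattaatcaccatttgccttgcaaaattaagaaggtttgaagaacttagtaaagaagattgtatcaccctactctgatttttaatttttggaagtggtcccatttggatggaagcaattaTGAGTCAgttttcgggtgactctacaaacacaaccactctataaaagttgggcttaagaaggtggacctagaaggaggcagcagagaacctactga
Tgm1, chr14:55713443-55713742, minus strand: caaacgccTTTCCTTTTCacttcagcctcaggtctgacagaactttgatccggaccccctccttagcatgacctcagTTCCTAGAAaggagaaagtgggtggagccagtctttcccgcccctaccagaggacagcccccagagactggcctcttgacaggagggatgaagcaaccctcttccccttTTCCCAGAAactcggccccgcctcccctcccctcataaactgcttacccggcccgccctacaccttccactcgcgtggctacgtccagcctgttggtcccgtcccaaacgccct
The AP-1 motif TGAGTCA lies 141 to 135 bases before the start in Il1rn and 46 to 40 before it in Mmp3. Saa3 holds an ISRE match 125 to 116 bases before its start. Tgm1 holds STAT matches 173 to 165 and 64 to 56 bases before its start and an ISRE match, on the opposite strand, 242 to 233 before it. The other promoters of Il1rn and Tgm1 in the table hold none of the 6. Among the other genes, Il11 holds an AP-1 match in 1 of its promoters and Ptx3 an NF-kB match, while Klk9 and Ccl3 hold none. A match is a run of letters in this window and was not tied to binding here.

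Under the same conditions, genes of reactive astrocytes and metal handling gave the largest gains in CPM. Gfap, the intermediate filament of astrocytes, had 223, 250.4 and 165 CPM in sham and 1854, 1297 and 1646 CPM at 24 h (2.91 ± 0.26, edgeR adjusted p = 3.89e-05), the smallest p of the comparison. Serpina3n, a secreted protease inhibitor of reactive astrocytes, had 15.7, 14.4 and 14.9 CPM in sham and 379, 307 and 430.2 CPM at 24 h (4.63 ± 0.52, edgeR adjusted p = 0.000651). Mt1, a metal-binding metallothionein, had 282, 226 and 178 CPM in sham and 811, 921 and 1036 CPM at 24 h (2.01 ± 0.26, edgeR adjusted p = 0.00121), and its neighbour Mt2 had 391, 458 and 485 CPM at 24 h against 96.4, 79.7 and 59.4 CPM in sham (2.50 ± 0.39, edgeR adjusted p = 0.0031). These 4 genes rose with narrow spread in every 24 h library, replicate 1 included, and kept their calls without any 1 library. Fth1, the heavy chain of the iron store ferritin, had 2627, 2265 and 1672 CPM in sham and 2671, 5358 and 3867 CPM at 24 h (0.86 ± 0.24, edgeR adjusted p = 0.0386). Replicate 1 of Fth1 at 24 h hardly passed the highest sham library, and the call was lost without any 1 library other than that one (adjusted p up to 0.185) and with the 6 libraries fitted alone. Tspan4, a membrane tetraspanin, had 9.04, 11.5 and 9.15 CPM in sham and 30.6, 32.2 and 41.1 CPM at 24 h (1.81 ± 0.22, edgeR adjusted p = 0.00109) and kept its call without any 1 library.

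Genes of 56 lists, 31 of pathways and 25 of cell types, give the wider picture. They hold 685 distinct genes, of which 653 were tested, 161 were higher, 45 lower and 447 not called. Most lists are described by their count of called members, to be read against the 4.06% and 3% of all genes called higher and lower, and by their median log2 fold change beside -0.001 for all genes. The lists were chosen with earlier results of these data known, so an excess over these shares may be partly built in. No list was tested as a whole. A member almost without sham reads passed the filter on low counts only through another AL stage where it was higher. Medians over tested members can lean upward for that reason. Calls of single members were often lost when 1 library was left out, in many cases whichever of several libraries it was. A smaller group also lowers the power of the test, so such a loss need not come from that library. For most lists with calls the number called without each library in turn is therefore also given. Where 6 such counts stand in a row, they leave out 24 h replicate 1, 2 and 3 and then sham replicate 1, 2 and 3.

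**Figure D2:**
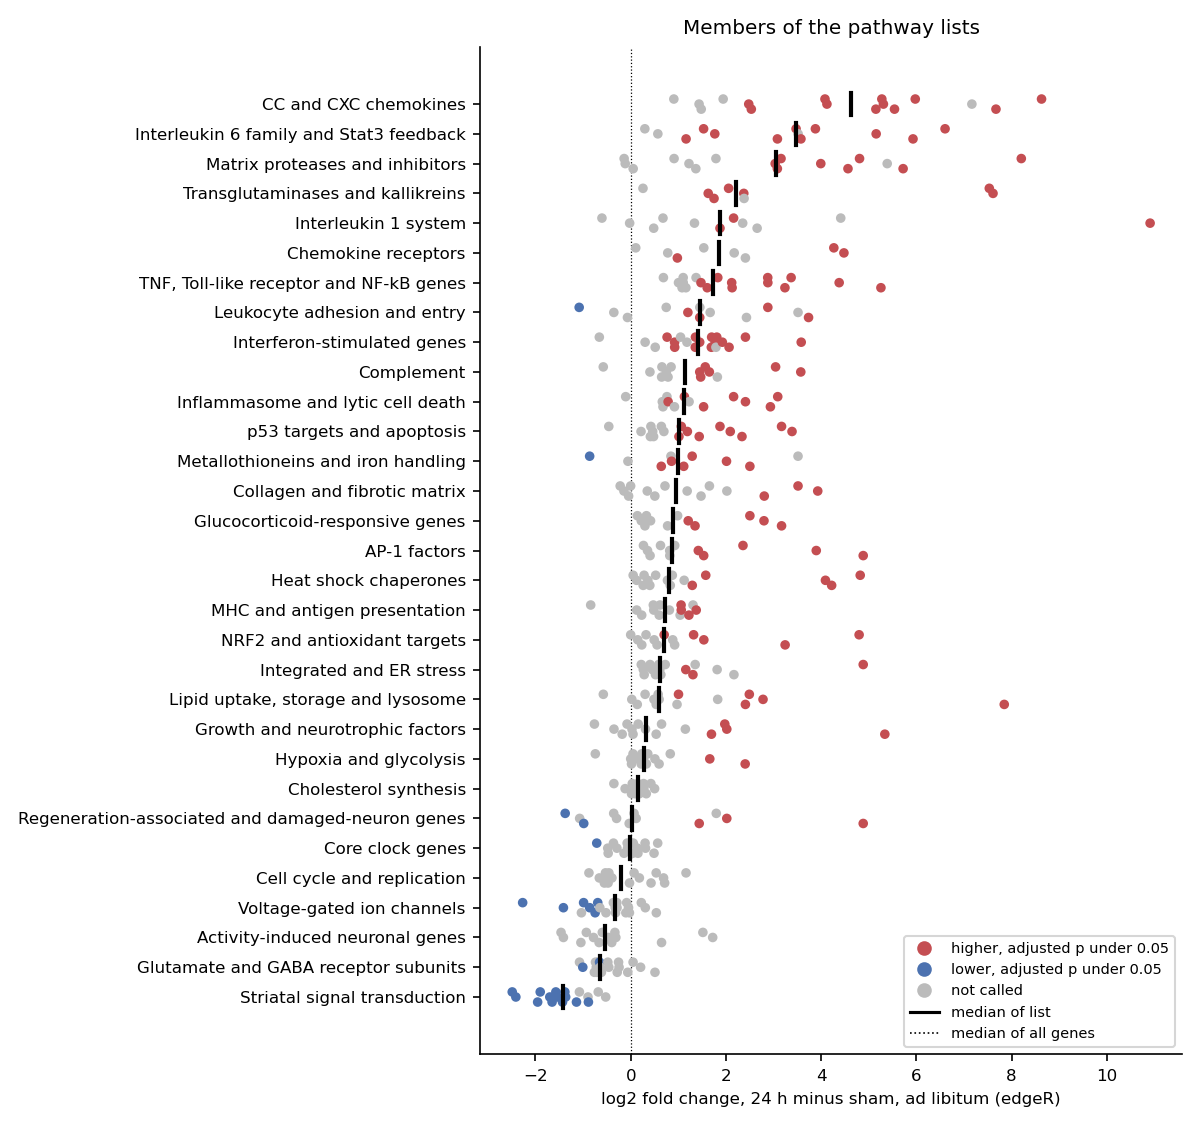
Log2 fold change at 24 h over sham for each tested member of the pathway lists, coloured by call, with the list median as a black bar and the median of all genes as a dotted line. Chemokines, the interleukin 6 family and matrix proteases lie far to the right, and striatal signal transduction lies to the left.

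Chemokines, which guide leukocytes, were among the most raised genes, with 11 of 16 tested called higher, 0 lower and a median of 4.63. The number called was 12, 5 and 7 without 24 h replicate 1, 2 and 3, and 5, 3 and 2 without sham replicate 1, 2 and 3. Cxcl10, which draws T cells through Cxcr3, had 0.0511, 0.156 and 0.277 CPM in sham and 7.04, 7.41 and 3.67 CPM at 24 h (5.15 ± 0.85, edgeR adjusted p = 0.00376) and was the member that kept its call without any 1 library. Ccl12, a monocyte chemokine of mice, had 0.869, 0.26 and 0.0924 CPM in sham and 7.62, 3.82 and 9.21 CPM at 24 h (4.08 ± 0.81, edgeR adjusted p = 0.00834). Cxcl1, a neutrophil chemokine, had 0.409, 0.156 and 0.0462 CPM in sham and 0.287, 19.5 and 4.24 CPM at 24 h (5.27 ± 1.35, edgeR adjusted p = 0.0277). Cxcl10 and Ccl12 rose without overlap, while Cxcl1 in replicate 1 at 24 h lay within the sham range. Cxcl2, also a neutrophil chemokine, had 1 read over the sham libraries and 0, 21.9 and 5.02 CPM at 24 h, a ratio of 492 with a 95% counting interval of 87.9 to 19490.0 (edgeR adjusted p = 0.0416). For the called members that lost their call without a library (Ccl2, Ccl3, Ccl4, Ccl6, Ccl7, Ccl9, Ccl12, Cxcl1, Cxcl2 and Cxcl16), the adjusted p reached 0.053 to 0.183. Ccl5, Ccl17, Ccl22, Cxcl3 and Cxcl5 were not called, with Ccl5 at 1.48 ± 0.57 (edgeR adjusted p = 0.131). Of 8 chemokine receptors tested, Ccr1, Cxcr2 and Ackr3 were called higher, all lost without any 1 library but 24 h replicate 1. Ccr2, the receptor of Ccl2 on monocytes, had 0.358, 0.312 and 0 CPM in sham and 0.0479, 1.14 and 1.86 CPM at 24 h (2.17 ± 1.26, edgeR adjusted p = 0.329) with overlapping groups.

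Neutrophil markers summed to 9.96, 8.64 and 10.1 CPM in sham and 9.63, 85.2 and 60 CPM at 24 h, so that replicate 1 at 24 h lay within the sham range while replicates 2 and 3 were far above it. Of 10 tested neutrophil markers, 4 (S100a8, S100a9, Cxcr2 and Retnlg) were called higher, with a median of 4.45, or 3.78 with Trem1, which had no sham read, at its bound. No member was at 0 in all 6 libraries. Their number was 7, 0 and 0 without 24 h replicate 1, 2 and 3, and 0, 0 and 0 without sham replicate 1, 2 and 3. S100a9, a calcium-binding protein abundant in neutrophils, had 0.818, 0.52 and 0.508 CPM in sham and 0.24, 28.6 and 17.6 CPM at 24 h (4.64 ± 1.21, edgeR adjusted p = 0.0306). Its level in replicate 1 at 24 h was under all 3 sham libraries. The defining markers Ly6g, Camp, Ltf and Ngp had too few reads to be tested, so the median covers only members that passed the filter on low counts. What part neutrophil RNA has in the chemokine and cytokine rises was not tested.

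Of cytokines that signal through gp130 and Stat3, their receptors and their feedback genes, 10 of 13 were called higher, with a median of 3.47. The count was 10, 6 and 5 without 24 h replicate 1, 2 and 3, and 4, 4 and 4 without sham replicate 1, 2 and 3. Lif, leukemia inhibitory factor, had 0.613, 0.781 and 0.878 CPM in sham and 13.4, 42 and 26.5 CPM at 24 h (5.16 ± 0.88, edgeR adjusted p = 0.00455). Clcf1, a further cytokine of this family, had 0.715, 0.729 and 0.97 CPM in sham and 7.86, 8.48 and 12.7 CPM at 24 h (3.58 ± 0.66, edgeR adjusted p = 0.00639). Stat3, the transcription factor, had 48.5, 48.8 and 52.1 CPM in sham and 139.5, 148 and 145 CPM at 24 h (1.53 ± 0.29, edgeR adjusted p = 0.00705). Socs3, the inhibitor that Stat3 induces, had 5.52, 4.42 and 4.99 CPM in sham and 38.8, 101 and 80.4 CPM at 24 h (3.88 ± 0.70, edgeR adjusted p = 0.00587). These 4 rose without overlap and kept their calls without any 1 library. Osmr, the oncostatin M receptor, had 4.91, 2.97 and 3.14 CPM in sham and 50.6, 21.4 and 21.1 CPM at 24 h (3.08 ± 0.73, edgeR adjusted p = 0.0197), and Il6 had 1 read over the sham libraries and 0.431, 2.15 and 1.55 CPM at 24 h, a ratio of 79.6 with a 95% counting interval of 13.8 to 3185 (edgeR adjusted p = 0.0214). Il6ra, Bcl3 and Pim1 were also called higher, and with Il6, Osmr and Il11 they lost their calls without at least 1 library (highest adjusted p 0.0834 to 0.147). Osm, oncostatin M itself, had 0.0511, 0.312 and 0.139 CPM in sham and 0.815, 4 and 1.14 CPM at 24 h (3.52 ± 1.05, edgeR adjusted p = 0.0517). It was not called, with replicate 2 at 24 h far above the other libraries. The shared receptor subunits Il6st (0.57 ± 0.19, edgeR adjusted p = 0.0759) and Lifr (0.30 ± 0.20, edgeR adjusted p = 0.398) were not called either.

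Among receptors and signal carriers of tumour necrosis factor and Toll-like receptors, 11 of 18 were higher with a median of 1.72. The count was 13, 5 and 8 without 24 h replicate 1, 2 and 3, and 5, 4 and 3 without sham replicate 1, 2 and 3. Tnfrsf12a, the receptor of the cytokine Tweak, had 6.23, 6.61 and 4.39 CPM in sham and 46.7, 66.5 and 64.8 CPM at 24 h (3.37 ± 0.51, edgeR adjusted p = 0.00283). Tnfrsf1a, the main receptor of tumour necrosis factor, had 15.8, 14.7 and 11.6 CPM in sham and 55.3, 58.2 and 69.2 CPM at 24 h (2.12 ± 0.40, edgeR adjusted p = 0.00693). Myd88, the adaptor of Toll-like and interleukin 1 receptors, had 5.31, 5 and 4.2 CPM in sham and 12, 15.8 and 16.4 CPM at 24 h (1.61 ± 0.31, edgeR adjusted p = 0.00718). All 3 rose without overlap and kept their calls without any 1 library. Tlr2, which senses bacterial lipoproteins, had 1.43, 0.989 and 1.11 CPM in sham and 9.3, 14.2 and 10 CPM at 24 h (3.24 ± 0.67, edgeR adjusted p = 0.00997) and lost its call without sham replicate 3 (adjusted p = 0.0559). Tnf had 3 reads over the sham libraries and 1.15, 4.42 and 0.827 CPM at 24 h, a ratio of 40.3 with a 95% counting interval of 13.4 to 198 (edgeR adjusted p = 0.0307). The inhibitors Nfkbia (1.10 ± 0.37, edgeR adjusted p = 0.0795) and Tnfaip3 (1.10 ± 0.41, edgeR adjusted p = 0.119) were not called. Tlr4, the receptor of lipopolysaccharide, had 1.02, 0.729 and 0.97 CPM in sham and 1.73, 1.31 and 2.43 CPM at 24 h and was not called either (edgeR adjusted p = 0.185).

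In the interleukin 1 system 3 of 11 members were called higher, the antagonist Il1rn, the cytokine Il33 and Nlrp3, with a median of 1.88. Il1b, the main secreted ligand, had 0.409, 0.104 and 0.0462 CPM in sham and 0.527, 8.96 and 2.69 CPM at 24 h (4.41 ± 1.30, edgeR adjusted p = 0.0501) and was not called. Its groups did not overlap, but replicate 1 at 24 h was close to sham. Il33, an alarmin released by damaged glia, rose from 43.4, 50.1 and 46.3 CPM in sham to 124, 95.2 and 294 CPM at 24 h (1.88 ± 0.39, edgeR adjusted p = 0.0104). Nlrp3, the inflammasome sensor, had 0.766, 1.09 and 0.785 CPM in sham and 2.54, 6.81 and 2.59 CPM at 24 h (2.16 ± 0.60, edgeR adjusted p = 0.0386), and the call was lost without any 1 library but 24 h replicate 1. The count was 4, 2 and 1 without 24 h replicate 1, 2 and 3, and 2, 2 and 0 without sham replicate 1, 2 and 3. Among 13 genes of inflammasomes and lytic cell death, 7 were higher (Nlrp3, Pycard, Casp4, Naip2, Ripk3, Zbp1 and Ninj1). Ripk3, the kinase that starts necroptosis, had 0.307, 0.312 and 0.185 CPM in sham and 1.39, 2.63 and 2.22 CPM at 24 h (2.93 ± 0.56, edgeR adjusted p = 0.00718) and kept its call without any 1 library. Mlkl, the protein that Ripk3 activates to break the membrane, had 0.664, 0.052 and 0.323 CPM in sham and 0.671, 1.14 and 0.672 CPM at 24 h (1.23 ± 0.75, edgeR adjusted p = 0.359) and Gsdmd, the pore former of pyroptosis, had 2.45, 2.24 and 2.4 CPM in sham and 3.16, 4.12 and 3.98 CPM at 24 h (0.66 ± 0.31, edgeR adjusted p = 0.222), neither called. The number called in that list was 5, 2 and 3 without 24 h replicate 1, 2 and 3, and 1, 2 and 2 without sham replicate 1, 2 and 3.

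Among interferon-stimulated genes, 14 of 20 were higher with a median of 1.40. The count was 10, 11 and 6 without 24 h replicate 1, 2 and 3, and 5, 5 and 5 without sham replicate 1, 2 and 3. Bst2, the antiviral protein tetherin, had 5.93, 3.12 and 2.77 CPM in sham and 12.7, 12.1 and 16.6 CPM at 24 h (1.81 ± 0.30, edgeR adjusted p = 0.00365). Ifit3, an antiviral RNA-binding protein, had 6.18, 6.04 and 4.53 CPM in sham and 19.6, 15.7 and 18.8 CPM at 24 h (1.69 ± 0.30, edgeR adjusted p = 0.00552). Oas1a, an oligoadenylate synthetase, had 0.715, 0.677 and 0.462 CPM in sham and 2.59, 2.09 and 2.38 CPM at 24 h (1.93 ± 0.34, edgeR adjusted p = 0.00572). These 3 kept their calls without any 1 library, and their groups did not overlap. Irf7, which amplifies interferon production, had 2.91, 2.55 and 2.08 CPM in sham and 6.57, 6.21 and 7.81 CPM at 24 h (1.45 ± 0.36, edgeR adjusted p = 0.0232) and lost its call without 24 h replicate 2 or 3 or any 1 sham library (adjusted p up to 0.109). Stat2, a carrier of the interferon signal, was not called (0.30 ± 0.20, edgeR adjusted p = 0.406). Complement genes numbered 6 higher of 14 tested (C1ra, C4b, C3ar1, C5ar1, Itgb2 and Serping1), with a median of 1.15. C4b, a component of the classical pathway, had 38.4, 45 and 42.4 CPM in sham and 134, 89.3 and 149 CPM at 24 h (1.57 ± 0.26, edgeR adjusted p = 0.00364) and kept its call without any 1 library, while the 3 chains of C1q were not called, with C1qa at 0.66 ± 0.31 (edgeR adjusted p = 0.223). The complement count was 6, 2 and 2 without 24 h replicate 1, 2 and 3, and 2, 1 and 2 without sham replicate 1, 2 and 3. Of 14 antigen presentation genes, H2-K1, H2-D1, Tap1 and Psmb8 of the class I pathway were higher, with 4, 1, 1, 1, 1 and 1 called without each library in turn, and Tap1 kept its call without any 1 library. No class II gene was called, and Cd74, the invariant chain, had 6.39, 4.22 and 3.46 CPM in sham and 7.91, 10.4 and 16.6 CPM at 24 h (1.31 ± 0.58, edgeR adjusted p = 0.19).

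Of enzymes that cut the extracellular matrix and their inhibitors, 8 of 16 were higher, with a median of 3.06. The count was 11, 5 and 6 without 24 h replicate 1, 2 and 3, and 5, 4 and 4 without sham replicate 1, 2 and 3. Timp1, an inhibitor of metalloproteinases, had 0.818, 0.885 and 0.416 CPM in sham and 15.5, 47.1 and 49.1 CPM at 24 h (5.72 ± 0.84, edgeR adjusted p = 0.00218). Adamts1, a protease of proteoglycans, had 12, 12.3 and 16.7 CPM in sham and 81.8, 132 and 121 CPM at 24 h (3.03 ± 0.49, edgeR adjusted p = 0.00336). Mmp19, a metalloproteinase, had 0.256, 0.26 and 0.785 CPM in sham and 3.59, 3.05 and 4.65 CPM at 24 h (3.08 ± 0.62, edgeR adjusted p = 0.00939). All 3 rose without overlap and kept their calls without any 1 library. Mmp9, the gelatinase linked to opening of the blood-brain barrier in stroke, had 0.92, 1.25 and 1.34 CPM in sham and 1.87, 5.61 and 4.76 CPM at 24 h (1.79 ± 0.55, edgeR adjusted p = 0.0589) and was not called. Mmp2, Timp2 and Timp3 were not called either, with log2 fold changes of -0.14, -0.12 and 0.05. Of 14 collagen and fibrotic matrix genes, Tnc, Lox and Thbs1 were higher and none lower, and the count was 4, 1, 1, 0, 1 and 0 without each library in turn. Thbs1, a matricellular regulator of vessel growth, had 2.2, 2.76 and 2.59 CPM in sham and 5.42, 47.2 and 62.5 CPM at 24 h (3.93 ± 1.07, edgeR adjusted p = 0.0359).

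Transglutaminases and kallikreins, which crosslink and cut proteins, had 6 of 8 tested members higher with a median of 2.22. The count was 5, 5 and 2 without 24 h replicate 1, 2 and 3, and 5, 3 and 3 without sham replicate 1, 2 and 3. Besides Tgm1 and Klk9, Klk6, a protease of oligodendrocytes, had 10.5, 11.8 and 5.5 CPM in sham and 37.4, 21.6 and 56.6 CPM at 24 h (2.06 ± 0.53, edgeR adjusted p = 0.0281). F13a1, coagulation factor XIII of macrophages, had 1.07, 0.312 and 0.554 CPM in sham and 1.82, 3.05 and 5.28 CPM at 24 h (2.38 ± 0.60, edgeR adjusted p = 0.0268). Klk8, a neuronal protease known as neuropsin, had 3.37, 1.98 and 1.85 CPM in sham and 7.86, 3.7 and 10.7 CPM at 24 h (1.63 ± 0.48, edgeR adjusted p = 0.0486). Klk6 and Klk8 were highest in replicate 3 and lowest in replicate 2 at 24 h, and neither overlapped with sham. The calls of Klk6, Klk8, F13a1 and Tgm2 were lost without at least 4 of the 6 libraries (highest adjusted p 0.117 to 0.182). Klk9 lies on chromosome 7, 43791891 to 43796757, plus strand (GRCm38, ENSMUSG00000047884), in the kallikrein cluster, and reads of its neighbours cannot be told apart from its own where they overlap. Of 12 genes of leukocyte adhesion, Icam1, Itgb2, Pecam1 and Cd44 were higher and Selplg lower, with 4, 1, 2, 1, 1 and 1 called without each library in turn. Cd44, the hyaluronan receptor, had 1.84, 3.44 and 2.17 CPM in sham and 34.7, 36.1 and 28.3 CPM at 24 h (3.73 ± 0.63, edgeR adjusted p = 0.0041). It kept its call without any 1 library, while Selp and Sele, the selectins of activated endothelium, were not called (2.43 ± 1.38 and 1.67 ± 1.22, edgeR adjusted p = 0.32 and 0.452).

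Stress programs were raised in part. Of 16 heat shock chaperones, 5 were higher (Hspa1a, Hspa1b, Hspb1, Hspb8 and Bag3) with a median of 0.80, or 0.43 without 24 h replicate 1. The count was 4, 3 and 3 without 24 h replicate 1, 2 and 3, and 2, 2 and 1 without sham replicate 1, 2 and 3. Hspb1, a small heat shock protein of reactive glia, had 20.8, 10.7 and 11.8 CPM in sham and 203, 373 and 162 CPM at 24 h (4.09 ± 0.65, edgeR adjusted p = 0.00316) and kept its call without any 1 library. Hspa1b, the inducible Hsp70, had 13.2, 11.2 and 11.7 CPM in sham and 624, 224 and 172 CPM at 24 h (4.82 ± 1.15, edgeR adjusted p = 0.0202), and Hspa1a had 12, 9.16 and 8.96 CPM in sham and 286, 144 and 131 CPM at 24 h (4.22 ± 1.10, edgeR adjusted p = 0.0295). These near-identical genes share reads, so their split is uncertain, and replicate 1 at 24 h was the highest library for both. Hspa1b lost its call without any 1 sham library (adjusted p up to 0.0943), and Hspa1a without any 1 of the 6 libraries (adjusted p up to 0.121). Hspa8, the constitutive Hsp70, had a log2 fold change of 0.12 ± 0.35 (edgeR adjusted p = 0.872).

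Of 16 genes of the integrated stress response and the endoplasmic reticulum, Atf3, Atf5 and Ppp1r15a were higher and none lower, with 3, 1, 3, 2, 2 and 1 called without each library in turn. Atf3, a stress-induced transcription factor, had 1.23, 0.833 and 1.16 CPM in sham and 32.7, 35.7 and 27.1 CPM at 24 h (4.88 ± 0.90, edgeR adjusted p = 0.00639) and kept its call without any 1 library, while Ddit3, known as Chop, had 35, 27.5 and 23.7 CPM in sham and 46, 42.9 and 40.8 CPM at 24 h (0.59 ± 0.28, edgeR adjusted p = 0.228) and was not called. Targets of Nrf2, the antioxidant transcription factor, had 5 of 13 higher with a median of 0.70. Hmox1, heme oxygenase 1, had 3.99, 2.76 and 3.65 CPM in sham and 57.8, 137 and 95.2 CPM at 24 h (4.80 ± 0.99, edgeR adjusted p = 0.0102). Srxn1, sulfiredoxin, had 107, 105 and 84.3 CPM in sham and 263, 302 and 294 CPM at 24 h (1.54 ± 0.27, edgeR adjusted p = 0.00505). Both rose without overlap, and Srxn1 kept its call without any 1 library while Hmox1 lost it without sham replicate 2 or 3 (adjusted p up to 0.056). Nqo1 (0.55 ± 0.28, edgeR adjusted p = 0.253) and Gclc (0.15 ± 0.18, edgeR adjusted p = 0.667), classic targets of Nrf2, were not called. The Nrf2 count was 5, 4 and 5 without 24 h replicate 1, 2 and 3, and 2, 3 and 3 without sham replicate 1, 2 and 3.

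Among 10 genes of metallothioneins and iron handling, 6 were higher (Mt1, Mt2, Slc39a14, Fth1, Tfrc and Cp). Slc40a1, the iron exporter ferroportin, was the 1 lower member, with 7.51, 8.17 and 8.54 CPM in sham and 4.65, 5.02 and 3.67 CPM at 24 h (-0.86 ± 0.20, edgeR adjusted p = 0.0187). Its libraries at 24 h were all below sham, and the call was lost without 24 h replicate 3 or sham replicate 2 or 3 (adjusted p up to 0.0894). Mt3, the metallothionein of neurons and astrocytes, had a log2 fold change of -0.06 ± 0.23 (edgeR adjusted p = 0.915). The count of called members was 7, 4 and 4 without 24 h replicate 1, 2 and 3, and 4, 2 and 2 without sham replicate 1, 2 and 3. Of 15 genes of hypoxia and glycolysis, Hk2 and Adm were higher (2, 1, 1, 1, 1 and 0 called without each library in turn), and Vegfa, the classic hypoxia-induced growth factor, had 53.9, 58.4 and 80.1 CPM in sham and 49, 69.2 and 80.8 CPM at 24 h (0.05 ± 0.23, edgeR adjusted p = 0.929). Hk2, a hexokinase, had 5.62, 5.21 and 4.94 CPM in sham and 17.4, 14.2 and 18.2 CPM at 24 h (1.66 ± 0.34, edgeR adjusted p = 0.00986) and lost its call without sham replicate 3 (adjusted p = 0.0535). The list's median was 0.27.

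Genes of p53 and apoptosis had 9 of 17 higher with a median of 1.01, and the count was 9, 3 and 5 without 24 h replicate 1, 2 and 3, and 2, 3 and 1 without sham replicate 1, 2 and 3. Cdkn1a, the cell cycle inhibitor p21, had 30.2, 18.6 and 20.3 CPM in sham and 169.7, 230.3 and 222 CPM at 24 h (3.17 ± 0.44, edgeR adjusted p = 0.00196) and kept its call without any 1 library. Its 24 h libraries lay close together and far above sham. Gadd45b, a stress sensor, had 13.5, 15.4 and 11.8 CPM in sham and 34.1, 88.6 and 82.9 CPM at 24 h (2.34 ± 0.52, edgeR adjusted p = 0.0148). Pmaip1, a pro-apoptotic protein known as Noxa, had 2.1, 1.51 and 1.57 CPM in sham and 10.4, 8.06 and 3.62 CPM at 24 h (2.09 ± 0.47, edgeR adjusted p = 0.0149). The called members other than Cdkn1a lost their calls without at least 1 library (highest adjusted p 0.0749 to 0.141). Bax, which opens the outer mitochondrial membrane, was not called at the level of RNA (0.42 ± 0.16, edgeR adjusted p = 0.124).

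Among AP-1 transcription factors, which answer to stress and growth signals, 5 of 12 were higher and the count was 5, 4 and 5 without 24 h replicate 1, 2 and 3, and 4, 4 and 4 without sham replicate 1, 2 and 3. Fosl1, the Fra-1 subunit, had 4.65, 5.31 and 6.28 CPM in sham and 17.7, 34.3 and 31.4 CPM at 24 h (2.36 ± 0.40, edgeR adjusted p = 0.0041). Maff, a small Maf protein, had 3.17, 2.86 and 2.08 CPM in sham and 19.7, 49.7 and 51.5 CPM at 24 h (3.90 ± 0.59, edgeR adjusted p = 0.00283). Mafk, its relative, had 16.9, 18.2 and 15.5 CPM in sham and 32, 55 and 48.2 CPM at 24 h (1.42 ± 0.26, edgeR adjusted p = 0.00587). With Atf3 these 3 kept their calls without any 1 library and showed no overlap. Fos (0.82 ± 0.55, edgeR adjusted p = 0.411) and Fosb (0.41 ± 0.40, edgeR adjusted p = 0.598), the immediate early members, were not called. Genes that neurons induce with activity had 0 higher and 0 lower of 14 tested and a median of -0.53, and 2 were called without 24 h replicate 2 or sham replicate 1. Arc, a synaptic plasticity gene, had 149, 311 and 312 CPM in sham and 178, 194 and 138 CPM at 24 h (-0.60 ± 0.57, edgeR adjusted p = 0.588), with wide overlap.

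Growth factors had 4 of 15 higher (Gdf15, Fgf2, Hbegf and Tgfb1), and 4, 2, 2, 2, 2 and 1 without each library in turn. Hbegf, a ligand of the epidermal growth factor receptor, had 17, 15.7 and 15.6 CPM in sham and 59.5, 76.7 and 53.5 CPM at 24 h (1.98 ± 0.38, edgeR adjusted p = 0.00714) and kept its call without any 1 library. Gdf15, a stress-induced cytokine, had 0.409, 0.208 and 0.0924 CPM in sham and 14.6, 7.88 and 6.46 CPM at 24 h (5.34 ± 1.04, edgeR adjusted p = 0.00766) and lost its call without sham replicate 3 (adjusted p = 0.053). Bdnf, Gdnf and Igf1 were not called, with Bdnf at 0.65 ± 0.51 (edgeR adjusted p = 0.486). Of 12 glucocorticoid-responsive genes, 5 were higher (Fkbp5, Cdkn1a, Errfi1, Plin4 and Mt2), and 6, 3, 3, 4, 3 and 3 were called without each library in turn. Among them Plin4, a lipid droplet protein, had 12.2, 5.36 and 3.93 CPM in sham and 46, 47.2 and 55.9 CPM at 24 h (2.80 ± 0.49, edgeR adjusted p = 0.00535) and kept its call without any 1 library. Tsc22d3 and Sgk1, further genes that glucocorticoids induce, had log2 fold changes of 0.30 ± 0.20 and 0.42 ± 0.28 (edgeR adjusted p = 0.4 and 0.417). Of 16 clock genes 1 was lower, Npas2, with 52.1, 40.7 and 43.2 CPM in sham and 27.4, 26.9 and 28.6 CPM at 24 h (-0.71 ± 0.14, edgeR adjusted p = 0.0074), and it kept its call without any 1 library. In lipid uptake and lysosome, Plin2, Ch25h, Ctsl and Gpnmb were higher besides Msr1, of 15 tested, and the count was 5, 2, 1, 3, 2 and 1 without each library in turn. Cholesterol synthesis and cell cycle genes had 0 called members of 14 and 16 tested, with medians of 0.16 and -0.21, and no member was called without any 1 library either.

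**Figure D3:**
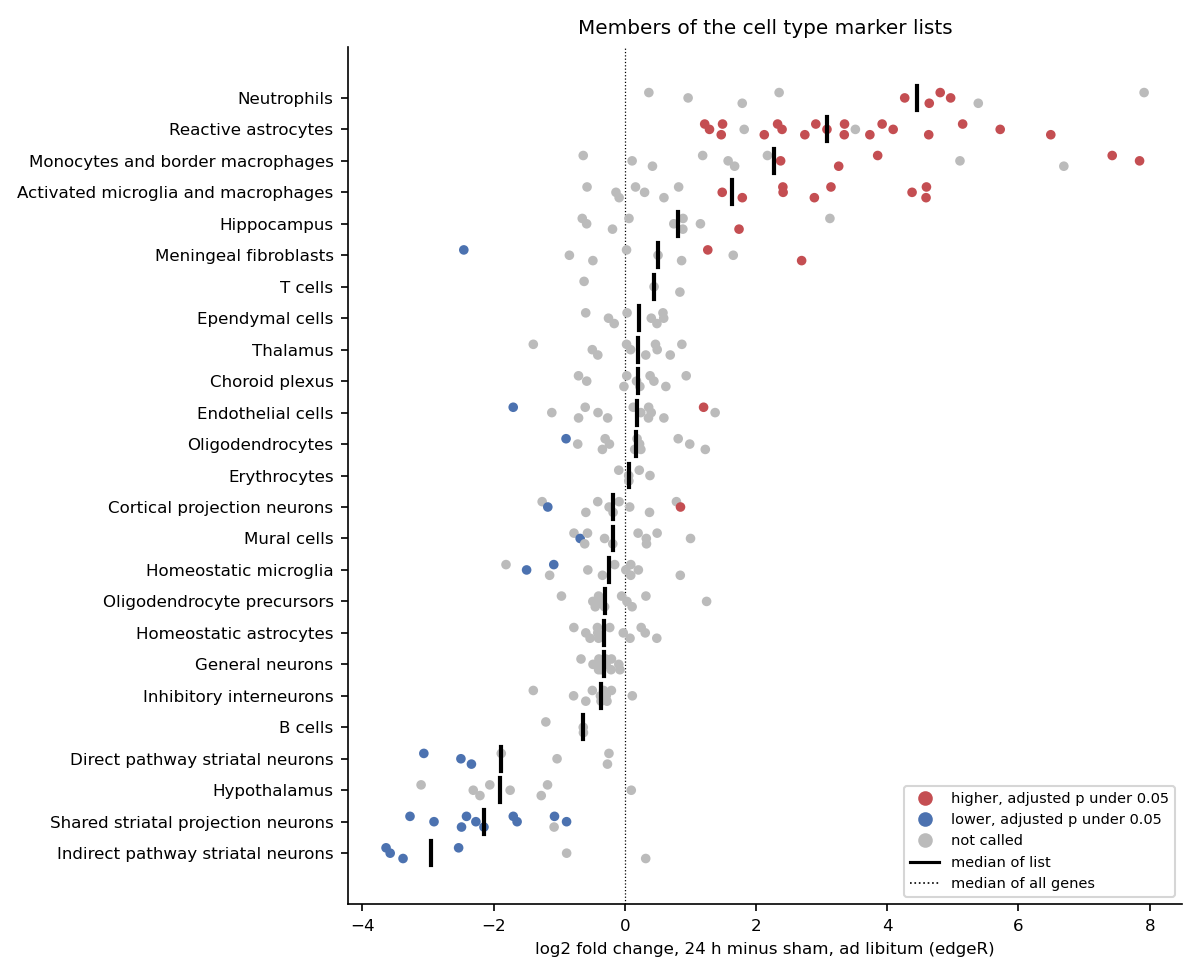
Log2 fold change at 24 h over sham for each tested member of the cell type lists, coloured by call, with the list median as a black bar and the median of all genes as a dotted line. Reactive astrocyte genes lie to the right almost without exception, and lists of striatal projection neurons lie to the left. Pan-neuronal, interneuron and cortical lists lie nearer the line, with medians of -0.32, -0.36 and -0.18, while hypothalamus has -1.90.

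Genes of reactive astrocytes rose almost as a whole, 19 of 21 higher with a median of 3.08, while 12 genes of resting astrocytes had 0 called and a median of -0.31. Without 1 library the reactive count was 19, 16 and 18 without 24 h replicate 1, 2 and 3, and 15, 14 and 14 without sham replicate 1, 2 and 3, and 13 members kept their call without any 1 library. Vim, the intermediate filament vimentin, had 46, 37.3 and 38.6 CPM in sham and 276, 175 and 365 CPM at 24 h (2.74 ± 0.42, edgeR adjusted p = 0.0031). Aspg, an asparaginase, had 3.02, 3.23 and 2.63 CPM in sham and 12.8, 17.2 and 16.8 CPM at 24 h (2.40 ± 0.31, edgeR adjusted p = 0.00121). Cd109, a membrane protein that binds transforming growth factor beta, had 1.07, 1.3 and 1.75 CPM in sham and 18.2, 10.5 and 13.6 CPM at 24 h (3.35 ± 0.52, edgeR adjusted p = 0.0031). All 3 rose in every library, with groups far apart. Lcn2, a siderophore-binding protein of astrocytes and neutrophils, had 13.4, 1.82 and 0.462 CPM in sham and 17.5, 111 and 49.9 CPM at 24 h (3.51 ± 1.20, edgeR adjusted p = 0.087), and C3 had 1.43, 0.833 and 4.76 CPM in sham and 7.09, 3.34 and 14.6 CPM at 24 h (1.82 ± 0.80, edgeR adjusted p = 0.187). These were the 2 members not called. Replicate 1 at 24 h was near the highest sham library for Lcn2, and replicate 2 lay within the sham range for C3. The summed level of the list was 406, 387 and 308 CPM in sham and 3077, 2686 and 3071 CPM at 24 h, against 7236, 7237 and 6790.0 CPM in sham and 5151, 4621 and 6486 CPM at 24 h for resting astrocytes. Among resting genes, Aqp4, the water channel, had 54.4, 69.1 and 69.9 CPM in sham and 126, 48 and 55.3 CPM at 24 h (0.25 ± 0.31, edgeR adjusted p = 0.685), and Slc1a2, the main glutamate transporter, had 1996, 2134 and 2282 CPM in sham and 1426, 1239 and 1780.0 CPM at 24 h (-0.53 ± 0.23, edgeR adjusted p = 0.174). Without 24 h replicate 1 a member of the resting list was called, and none without any other 1 library.

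Of 12 genes of resting microglia, 0 were higher and 2 lower, Siglech and Selplg, with a median of -0.25. Without each library in turn 3, 1, 0, 1, 1 and 1 were called. Siglech, a sialic acid receptor of microglia, had 15.4, 12.8 and 10.2 CPM in sham and 7.38, 2.45 and 3.67 CPM at 24 h (-1.50 ± 0.31, edgeR adjusted p = 0.00986) and lost its call without 24 h replicate 3 (adjusted p = 0.0508). P2ry12, the nucleotide receptor of resting microglia, had 17.6, 21.3 and 20.6 CPM in sham and 10.5, 1.97 and 4.34 CPM at 24 h (-1.81 ± 0.54, edgeR adjusted p = 0.0523). Csf1r, the receptor on which microglia depend, had 112, 102 and 102 CPM in sham and 113, 64.7 and 106 CPM at 24 h (-0.15 ± 0.22, edgeR adjusted p = 0.728). P2ry12 was low in replicates 2 and 3 at 24 h and Csf1r overlapped with sham. Of 16 genes of activated microglia and macrophages, 9 were higher (Spp1, Lgals3, Cd68, Cd14, Clec7a, Itgax, Gpnmb, Cst7 and Cd63) with a median of 1.64. Spp1, osteopontin, had 7.72, 9.47 and 4.62 CPM in sham and 89.8, 200.5 and 234 CPM at 24 h (4.59 ± 0.88, edgeR adjusted p = 0.00718). Cd63, a lysosomal tetraspanin, had 111, 93.1 and 76.2 CPM in sham and 233, 224 and 327 CPM at 24 h (1.49 ± 0.28, edgeR adjusted p = 0.00716). Both kept their calls without any 1 library. Trem2, a lipid receptor of microglia, had 24, 23.4 and 17.4 CPM in sham and 22, 15.5 and 23.5 CPM at 24 h (-0.09 ± 0.29, edgeR adjusted p = 0.898), with overlap, and was among the 7 members not called. The activated list summed to 4424, 4150.0 and 3308 CPM in sham and 3190.0, 3699 and 4209 CPM at 24 h, also with overlap, and no difference between the resting and activated lists was tested. The number called was 8, 5 and 4 without 24 h replicate 1, 2 and 3, and 4, 3 and 2 without sham replicate 1, 2 and 3.

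Monocyte and border macrophage genes had 5 of 14 higher (Chil3, Lyve1, Msr1, F13a1 and Pf4) with a median of 2.27, or 2.12 with F10, which had no sham read, at its bound. The count was 6, 3 and 3 without 24 h replicate 1, 2 and 3, and 5, 3 and 2 without sham replicate 1, 2 and 3. Lyve1, a hyaluronan receptor of border macrophages and lymphatic vessels, had 0.92, 0.312 and 0.416 CPM in sham and 3.64, 3.4 and 8.84 CPM at 24 h (3.26 ± 0.44, edgeR adjusted p = 0.00154), and kept its call without any 1 library. Pf4, a chemokine of platelets and border macrophages, had 0.204, 0.208 and 0.0924 CPM in sham and 0.767, 3.58 and 3.15 CPM at 24 h (3.85 ± 0.74, edgeR adjusted p = 0.0072). Chil3, a chitinase-like protein of myeloid cells, had 1 read over the sham libraries and 0.0958, 6.51 and 5.12 CPM at 24 h, a ratio of 223 with a 95% counting interval of 39.6 to 8842 (edgeR adjusted p = 0.0257), nearly all of it in replicates 2 and 3. Ly6c2, of inflammatory monocytes, had 0.102, 0.364 and 0.369 CPM in sham and 0.144, 0.358 and 0.0517 CPM at 24 h (-0.63 ± 0.75, edgeR adjusted p = 0.668), with overlap. T cell and B cell lists had 3 tested members each and 0 called. B cell markers summed to 36, 22 and 22.6 CPM in sham and 5.51, 22.7 and 24.1 CPM at 24 h. No 24 h library was above the sham range for B cell markers. T cell markers summed to 2.4, 2.24 and 1.71 CPM in sham and 3.83, 2.81 and 2.38 CPM at 24 h, with replicates 1 and 2 above the sham range. The markers Cd3e, Cd3d, Cd3g, Cd8a and Ms4a1 had too few reads to be tested. Cd4, among the 10 largest falls and on no list, fell with 27.6, 9.06 and 17.9 CPM in sham and 1.34, 3.76 and 1.5 CPM at 24 h (-3.06 ± 0.77, edgeR adjusted p = 0.026), and lost its call without 24 h replicate 1 or 3 or sham replicate 1 or 3 (adjusted p up to 0.102). Its sham level was far above the summed T cell markers. It averaged 5.11 CPM after ischemia alone, 18.1 at 3 h, 6.58 at 12 h and 2.59 at 72 h. Which cells its reads came from was not tested.

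Many of the largest falls, ranked under the same conditions as the rises, were in genes of striatal projection neurons, the principal cells of the striatum. Drd2, the dopamine receptor of the indirect pathway, had 91.1, 33.5 and 67.8 CPM in sham and 6.8, 7.7 and 0.983 CPM at 24 h (log2 fold change -3.64 ± 0.75, edgeR adjusted p = 0.0103). Adora2a, the adenosine receptor of the same cells, had 243, 89 and 139.7 CPM in sham and 15.6, 24.4 and 5.43 CPM at 24 h (-3.38 ± 0.71, edgeR adjusted p = 0.0114). Gpr6, an orphan receptor of these neurons, had 44.4, 15.7 and 24.5 CPM in sham and 2.68, 3.28 and 1.14 CPM at 24 h (-3.58 ± 0.58, edgeR adjusted p = 0.00364). All 3 fell in every 24 h library, lowest in replicate 3, and sham replicate 2 was the lowest sham library for each. Adora2a lost its call without 24 h replicate 3 (edgeR adjusted p = 0.0505), and Drd2 and Gpr6 kept theirs. Slc35d3, a transporter needed for dopamine receptor traffic in direct pathway neurons, had 24.6, 10.3 and 18 CPM in sham and 2.73, 3.05 and 0.569 CPM at 24 h (-3.06 ± 0.62, edgeR adjusted p = 0.00939). Rxrg, a retinoid X receptor enriched in striatum, had 66.5, 28.8 and 47.8 CPM in sham and 8.05, 6.27 and 1.09 CPM at 24 h (-3.21 ± 0.56, edgeR adjusted p = 0.00535), and Rarb, a retinoic acid receptor, had 32.8, 16.6 and 26 CPM in sham and 6.95, 5.97 and 4.08 CPM at 24 h (-2.15 ± 0.28, edgeR adjusted p = 0.00121). These 3 kept their calls without any 1 library.

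Other genes with large falls were Sh3rf2, Serpina9 and Slc5a7, and every gene of this paragraph was ranked under those conditions. Sh3rf2, a ring finger protein, had 18.5, 6.66 and 15.2 CPM in sham and 1.97, 1.79 and 0.155 CPM at 24 h (-3.37 ± 0.71, edgeR adjusted p = 0.0113). Serpina9, a serine protease inhibitor, had 22, 5.99 and 13 CPM in sham and 1.92, 1.61 and 0.621 CPM at 24 h (-3.30 ± 0.68, edgeR adjusted p = 0.00997). Slc5a7, the choline transporter of cholinergic neurons, had 11.4, 5.99 and 13.8 CPM in sham and 1.87, 1.31 and 0.517 CPM at 24 h (-3.07 ± 0.64, edgeR adjusted p = 0.011), and lost its call without 24 h replicate 3 or sham replicate 3 (adjusted p up to 0.0534). Replicate 3 at 24 h was the lowest library for each of the 3. By loss of CPM the leading genes were Meg3, Cplx2, Ppp3ca, Adcy5 and Fbxl16. Adcy5, the adenylyl cyclase of striatal neurons, had 922, 515 and 714 CPM in sham and 233, 298 and 208 CPM at 24 h (-1.54 ± 0.24, edgeR adjusted p = 0.00316) and kept its call without any 1 library. Cplx2, a regulator of synaptic vesicle fusion, had 2650.0, 2003 and 1654 CPM in sham and 1024, 1004 and 1100.0 CPM at 24 h (-1.01 ± 0.21, edgeR adjusted p = 0.0108). Meg3, a long noncoding RNA abundant in neurons, had 728, 1016 and 2468 CPM in sham and 306, 648 and 369.8 CPM at 24 h (-1.67 ± 0.44, edgeR adjusted p = 0.0306), with sham replicate 3 far above the others, and lost its call without 24 h replicate 1 or 3 or sham replicate 3 (adjusted p up to 0.195). Ppp3ca, a catalytic subunit of calcineurin (-0.66 ± 0.19, edgeR adjusted p = 0.0489), and Fbxl16 (-0.66 ± 0.17, edgeR adjusted p = 0.0305) lost their calls without any 1 of the 6 libraries (adjusted p up to 0.156 and 0.0996). The falls with the smallest p were Plppr1, with 26.6, 18.2 and 20.7 CPM in sham and 6.76, 4.9 and 4.24 CPM at 24 h (-2.04 ± 0.25, edgeR adjusted p = 0.00109), Tmem44, with 99, 92.3 and 88.5 CPM in sham and 34.5, 40.5 and 41.9 CPM at 24 h (-1.26 ± 0.16, edgeR adjusted p = 0.00121), and Rarb.

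In the marker lists, 10 of 11 genes shared by striatal projection neurons were lower (median -2.15), 4 of 6 of the indirect pathway (median -2.96) and 3 of 7 of the direct pathway (median -1.88). Without each library in turn the counts were 9, 10, 9, 9, 10 and 9 for the shared list, 4, 4, 2, 3, 4 and 3 for the indirect pathway and 3, 3, 2, 2, 3 and 3 for the direct pathway. Drd1, the dopamine receptor of the direct pathway, had 67.9, 29.6 and 46.6 CPM in sham and 11.1, 11.8 and 5.69 CPM at 24 h (-2.34 ± 0.47, edgeR adjusted p = 0.00939). Tac1, the precursor of substance P in direct pathway neurons, had 75.6, 34 and 38.9 CPM in sham and 8.43, 14.5 and 3.46 CPM at 24 h (-2.50 ± 0.56, edgeR adjusted p = 0.0153). Penk, the enkephalin precursor of indirect pathway neurons, had 550.5, 261 and 281 CPM in sham and 72.5, 94.1 and 22.4 CPM at 24 h (-2.53 ± 0.61, edgeR adjusted p = 0.0217). Drd1 kept its call without any 1 library, and Tac1 lost its own without 24 h replicate 3 or sham replicate 1 (adjusted p up to 0.0651) and Penk without 24 h replicate 3 or sham replicate 1 or 3 (up to 0.0809). Ppp1r1b, which codes for DARPP-32, was the 1 shared member not called, with 1498, 575 and 906 CPM in sham and 178, 662 and 572 CPM at 24 h (-1.08 ± 0.53, edgeR adjusted p = 0.241) and overlap between groups. Whether the 2 pathways differed in their fall was not tested.

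The molecules that carry dopamine and cyclic nucleotide signals in these cells were also lower, 13 of 17 with a median of -1.43, and the count was 12, 12 and 12 without 24 h replicate 1, 2 and 3, and 11, 13 and 9 without sham replicate 1, 2 and 3. Pde10a, a striatal phosphodiesterase, had 293, 127 and 337 CPM in sham and 65.6, 43.5 and 25.7 CPM at 24 h (-2.49 ± 0.37, edgeR adjusted p = 0.00218). Gng7, the G protein subunit that pairs with Gnal, had 593, 278 and 422 CPM in sham and 122, 139 and 84.6 CPM at 24 h (-1.90 ± 0.31, edgeR adjusted p = 0.00343). Camk4, a calcium-dependent kinase, had 262, 192 and 246 CPM in sham and 99.4, 98.2 and 73.5 CPM at 24 h (-1.37 ± 0.21, edgeR adjusted p = 0.0031). Rasgrp2, an exchange factor of Rap1, had 101, 55.9 and 94.7 CPM in sham and 21, 29.5 and 14.5 CPM at 24 h (-1.95 ± 0.34, edgeR adjusted p = 0.00468). All 4 fell without overlap and kept their calls without any 1 library. Of 21 voltage-gated channel genes, 6 were lower (Scn4b, Cacna2d3, Kcnab1, Kcnd2, Kcnip2 and Kcnq5) and none higher, with a median of -0.33. Scn4b, a sodium channel subunit enriched in striatum, had 596, 262 and 480.1 CPM in sham and 85, 106 and 87.1 CPM at 24 h (-2.27 ± 0.48, edgeR adjusted p = 0.0113), and Kcnip2, a partner of A-type potassium channels, had 241, 157 and 189 CPM in sham and 66.3, 93.4 and 60.7 CPM at 24 h (-1.41 ± 0.26, edgeR adjusted p = 0.00639). Both kept their calls without any 1 library. The channel count was 5, 3 and 3 without 24 h replicate 1, 2 and 3, and 3, 5 and 2 without sham replicate 1, 2 and 3.

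Striatal levels also differed between the other AL stages. The summed CPM of the shared striatal list averaged 3276 in sham, 1237 after ischemia alone, 3160.0 at 3 h, 1386 at 12 h, 1026 at 24 h and 906 at 72 h. The ischemia-alone libraries, taken after 1 h, ran from 799 to 1519 CPM and so lay below all 3 sham libraries, which ran from 1951 to 4508. At 24 h they ran from 742 to 1307. The level at 3 h was near that of sham, so the sum did not move in 1 direction with time.

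Lists of other neurons held few calls. Of 12 pan-neuronal genes 0 were called and the median was -0.32, and of 11 interneuron genes 0 were called and the median was -0.36, with 0 in either list without any 1 library. Pan-neuronal markers summed to 9116, 9214 and 7817 CPM in sham and 6099, 6970 and 7628 CPM at 24 h. Every 24 h library was thus below every sham library for that sum, which was not tested. Rbfox3, the nuclear protein NeuN, had 542, 484 and 464 CPM in sham and 359.7, 461 and 474 CPM at 24 h (-0.20 ± 0.18, edgeR adjusted p = 0.549). Gad1, which makes GABA, had 373, 369.7 and 398 CPM in sham and 296, 363 and 287 CPM at 24 h (-0.27 ± 0.17, edgeR adjusted p = 0.371). Neither was called. Cortical projection neurons had Sulf2 higher and Foxp2 lower of 11 tested, with 4, 0, 0, 0, 1 and 0 called without each library in turn, and Slc17a7, the vesicular glutamate transporter of cortex, had 2073, 2065 and 1694 CPM in sham and 1403, 3012 and 3159 CPM at 24 h (0.38 ± 0.26, edgeR adjusted p = 0.428). Its groups overlapped. Glutamate and GABA receptor subunits had a median of -0.64 and 2 of 21 lower, Gria4 and Grm3, and the count was 9, 1 and 1 without 24 h replicate 1, 2 and 3, and 2, 1 and 1 without sham replicate 1, 2 and 3. Grm3, a presynaptic and astrocytic glutamate receptor, had 59.6, 58.4 and 59.4 CPM in sham and 29.8, 20.1 and 38.4 CPM at 24 h (-1.01 ± 0.19, edgeR adjusted p = 0.0065) and kept its call without any 1 library. Of 12 genes of regeneration and damaged neurons, Gadd45a, Atf3 and Fgf2 were higher and Gap43 and Ecel1 lower, with a median of 0.02 and 6, 2, 2, 3, 2 and 2 called without each library in turn. Gap43, a growth cone protein, fell with 306, 338 and 249.9 CPM in sham and 173, 153 and 126 CPM at 24 h (-0.99 ± 0.22, edgeR adjusted p = 0.0153), and Ecel1, an endopeptidase induced in damaged neurons, fell with 48.4, 48.5 and 66.2 CPM in sham and 27, 24 and 11.8 CPM at 24 h (-1.38 ± 0.28, edgeR adjusted p = 0.00939). Gap43 lost its call without 24 h replicate 2 or 3 or sham replicate 2 (adjusted p up to 0.0684) and Ecel1 without sham replicate 3 (adjusted p = 0.053).

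Regional markers bear on how alike the sections were. Thalamus markers had a median of 0.20, or -1.34 without 24 h replicate 1, with 0 of 10 called either way. Hypothalamus markers, with a median of -1.90 and none of 8 called, summed to 52.1, 132 and 55.2 CPM in sham and 19.9, 54.5 and 13.1 CPM at 24 h. Choroid plexus markers summed to 2506, 352 and 1535 CPM in sham and 1287, 1098 and 3071 CPM at 24 h, with wide spread in both groups, and 0 of 10 were called. Hippocampus markers had a median of 0.82, or 0.13 without 24 h replicate 1, and summed to 444, 466 and 394 CPM in sham and 428, 349.9 and 374 CPM at 24 h.

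Oligodendrocyte, vascular and meningeal lists held few calls. Of 12 oligodendrocyte genes Ugt8a, an enzyme of myelin lipid synthesis, was lower, with 34.3, 42.8 and 40.3 CPM in sham and 29, 18 and 16 CPM at 24 h (-0.90 ± 0.25, edgeR adjusted p = 0.0418), and lost its call without 24 h replicate 2 or 3 or any 1 sham library (adjusted p up to 0.173). The list summed to 9672, 9547 and 7289 CPM in sham and 8237, 23310.0 and 12750.0 CPM at 24 h, highest in replicate 2 at 24 h. Endothelial genes had Pecam1, an adhesion protein, higher and Itm2a, a membrane protein of endothelium, lower of 14 tested, with 4, 1, 1, 1, 1 and 1 called without each library in turn. Itm2a had 36.8, 37.3 and 32.1 CPM in sham and 12, 11.3 and 9.36 CPM at 24 h (-1.70 ± 0.25, edgeR adjusted p = 0.00218) and kept its call without any 1 library, and Pecam1 had 26.8, 25.9 and 23.9 CPM in sham and 39.4, 63 and 73.6 CPM at 24 h (1.20 ± 0.30, edgeR adjusted p = 0.0259) and lost its call without 24 h replicate 2 or 3 or any 1 sham library (adjusted p up to 0.107). Cldn5, the tight junction claudin of brain vessels, had 96.8, 76.9 and 60.6 CPM in sham and 82.5, 125 and 103 CPM at 24 h (0.40 ± 0.25, edgeR adjusted p = 0.371), not called. Among 11 mural cell genes Rgs5, a G protein signalling regulator of pericytes, was lower, with 85.2, 73.2 and 88.5 CPM in sham and 61.7, 36.6 and 55.8 CPM at 24 h (-0.68 ± 0.17, edgeR adjusted p = 0.0284), and lost its call without 24 h replicate 2 or 3 or any 1 sham library (adjusted p up to 0.128). Oligodendrocyte precursor and ependymal lists had 0 called of 11 and 8 tested, with medians of -0.31 and 0.22. Of 9 meningeal fibroblast genes, Dcn and Itih2 were higher and Slc47a1 lower, with 2, 2, 2, 3, 2 and 2 called without each library in turn. Dcn, the proteoglycan decorin, had 3.83, 3.44 and 5.13 CPM in sham and 17.9, 32.1 and 30.6 CPM at 24 h (2.69 ± 0.51, edgeR adjusted p = 0.00714), and Slc47a1, a transporter of organic cations, had 2.25, 3.7 and 2.68 CPM in sham and 0.383, 0.896 and 0.31 CPM at 24 h (-2.45 ± 0.43, edgeR adjusted p = 0.00543). Both kept their calls without any 1 library, with Dcn higher and Slc47a1 lower in every 24 h library. Itih2, a hyaluronan-binding protein, had 2.91, 2.08 and 1.48 CPM in sham and 6.52, 3.82 and 5.17 CPM at 24 h (1.26 ± 0.35, edgeR adjusted p = 0.038). Erythrocyte genes had 0 of 5 called, where the near-identical hemoglobin genes share reads.

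Gene classes differed in the share called. Of 15046 protein-coding genes tested, 649 were higher and 422 lower, with a median of 0.01. Of 398 genes annotated as antisense, 1 was higher and 27 lower, with a median of -0.37, and of 356 lincRNA genes 9 were higher and 16 lower, with a median of -0.28. Another 652 genes of other classes had 9 higher and 28 lower and a median of -0.22. Since the use of strand in counting is not given in the sources used here, reads of an antisense gene cannot be told apart from those of its partner.

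Beside the other AL stages, some groups of rising genes had their highest mean level at 24 h and others were higher at 72 h. The 24 h libraries are shared by the comparisons with sham, 12 h and 72 h, so these are not independent of each other. Between 24 and 12 h, 0 of 16452 genes (0%) were called by edgeR, with 1320 at an unadjusted p under 0.05 and 54 called by DESeq2, and without 24 h replicate 1 edgeR called 3. Between 24 and 72 h, 427 genes (2.6%) were called, 104 higher (0.632%) and 323 lower (1.96%) at 24 h. Without 24 h replicate 1, 2 and 3 that count was 773, 73 and 167, and without 72 h replicate 1, 2 and 3 it was 455, 266 and 118. With the 6 libraries fitted alone it was 17, and with the replicate number as a block 294.

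Summed chemokine levels averaged 6.41 CPM in sham, 8.02 after ischemia alone, 35.8 at 3 h, 64.7 at 12 h, 108 at 24 h and 39.3 at 72 h. The libraries overlapped, running from 8.14 to 141 at 12 h, 44.8 to 174 at 24 h and 18.1 to 62.9 at 72 h, and 0 of 16 chemokines were called against 12 h or 72 h. Neutrophil markers averaged 9.57 in sham, 12.9 after ischemia alone, 22.5 at 3 h, 41.5 at 12 h, 51.6 at 24 h and 20.5 at 72 h. Their 12 h libraries ran from 13.4 to 93.4 CPM and those at 24 h from 9.63 to 85.2. Replicate 1 at 24 h was under every 72 h library, and 0 of 10 markers were called against 12 h and 2 of 10 against 72 h. S100a9 and Retnlg were higher at 24 h than at 72 h (6.11 ± 1.37, edgeR adjusted p = 0.0256, and 7.81 ± 1.78, edgeR adjusted p = 0.0276). Lif had 48.8, 3.73 and 7.76 CPM at 12 h, 13.4, 42 and 26.5 at 24 h and 2.29, 2.42 and 3.59 at 72 h, and was higher at 24 h than at 72 h (3.29 ± 0.77, edgeR adjusted p = 0.0313), a call lost with the replicate block (adjusted p = 0.0559). Few stress genes were called against 72 h, namely 1 of 16 heat shock, 1 of 16 integrated and endoplasmic reticulum stress and 1 of 13 Nrf2 genes, 4 higher and 1 lower of 17 p53 genes, and 2 higher and 1 lower of 10 metallothionein and iron genes. With the block the p53 genes had 2 higher, and the other counts of these lists were the same. Among those called, Cdkn1a had 20.1, 27.7 and 54 CPM at 72 h (2.61 ± 0.43, edgeR adjusted p = 0.00526), Hspb1 25.4, 24.6 and 42.3 (3.00 ± 0.61, edgeR adjusted p = 0.0167), Mt1 277, 374 and 367 (1.44 ± 0.25, edgeR adjusted p = 0.00643) and, of the glucocorticoid-responsive list, Plin4 8.86, 5.03 and 9.41 (2.68 ± 0.49, edgeR adjusted p = 0.00885). The 72 h libraries of these 4 genes were all below those at 24 h.

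Other genes had their higher level at 72 h. Interferon-stimulated genes summed to 89.3 CPM at 12 h, 153 at 24 h and 271 at 72 h, and 7 of 20 were lower at 24 h than at 72 h, of which Zbp1 lost its call with the replicate block (adjusted p = 0.0541). Ifi27l2a, an interferon-induced mitochondrial protein, had 0.409, 0.573 and 0.508 CPM in sham, 1.25, 1.73 and 1.91 at 24 h and 12, 14.6 and 16.9 at 72 h (-3.15 ± 0.34, edgeR adjusted p = 0.000437). Complement genes summed to 636 CPM at 24 h and 1414 at 72 h, with 4 of 14 lower at 24 h (C1qa, C1qc, C4b and Itgam), of which C1qa and C4b lost their calls with the replicate block (adjusted p = 0.0559 and 0.0641). Of 12 genes of resting microglia 9 were lower at 24 h than at 72 h, Csf1r among them, with 113, 64.7 and 106 CPM at 24 h and 199, 238 and 348 at 72 h (-1.47 ± 0.22, edgeR adjusted p = 0.00314). Cell cycle genes, of which none was called between 24 h and sham, had 11 of 16 lower at 24 h than at 72 h with a median difference of -3.33. Mki67, the proliferation marker Ki-67, had 0.971, 0.989 and 2.17 CPM in sham, 1.25, 0.956 and 0.776 at 24 h and 7.56, 11.7 and 43.9 at 72 h (-4.40 ± 0.58, edgeR adjusted p = 0.00169). In these examples the 24 h and 72 h libraries did not overlap. Reactive astrocyte genes summed to 2945 CPM at 24 h and 3885 at 72 h, and of 21 only Hspb1 and Ptx3 differed by the test, both higher at 24 h, and Ptx3 lost its call with the replicate block (adjusted p = 0.0638).

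**Figure D4:**
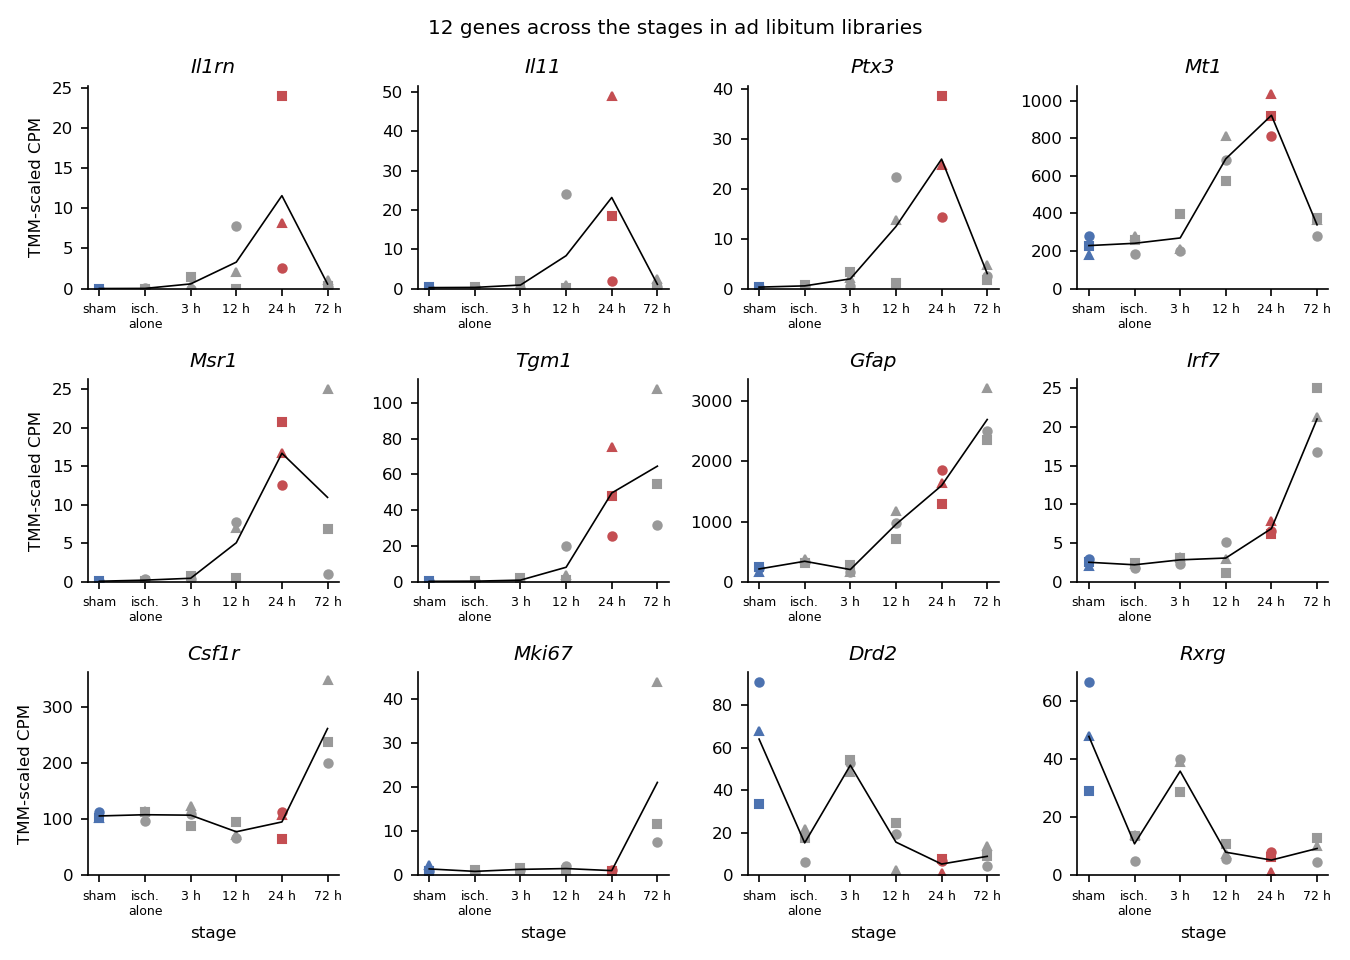
TMM-scaled CPM on linear axes of each AL library across the 6 stages for 12 genes, with sham in blue, 24 h in red, the other stages in grey, point shapes by replicate and a line through stage means. Il1rn, Il11, Ptx3 and Mt1 are highest on average at 24 h, Irf7, Csf1r and Mki67 at 72 h, and Drd2 and Rxrg are low after ischemia alone and from 12 h on.

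The 24 h change was measured again in libraries of fasted mice, none of which entered the AL comparison. Over 9 sham and 9 libraries at 24 h of the EOD, IF12 and IF16 regimens, the mean of the 3 regimen contrasts called 8166 of 16658 genes (49%), 4319 higher (25.9%) and 3847 lower (23.1%), with more libraries behind it than the AL comparison. Of the 668 genes higher in AL, 668 had the same direction and 631 were called higher there, which is 94.5% of the AL set and 14.6% of the fasting set, beside the 25.9% of all genes called higher. Their median log2 fold change was 1.60 in AL and 1.49 in the fasted mice. Genes picked by their AL call tend to have enlarged AL values, so AL and fasting medians are not on an equal footing, for lower genes too. The same-direction share of all tested genes is not given here. Of the 493 genes lower in AL, 490 had the same direction and 439 were called lower, which is 89.1% of the AL set and 11.4% of the fasting set, with medians of -0.96 and -0.74. The difference between the AL and fasting responses was called for 0 genes (0%) by edgeR, with 1084 at an unadjusted p under 0.05 and 4 called by DESeq2, and edgeR called 2 without replicate 1 of the IF16 24 h group. A missed threshold does not show that the responses were alike.

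**Figure D5:**
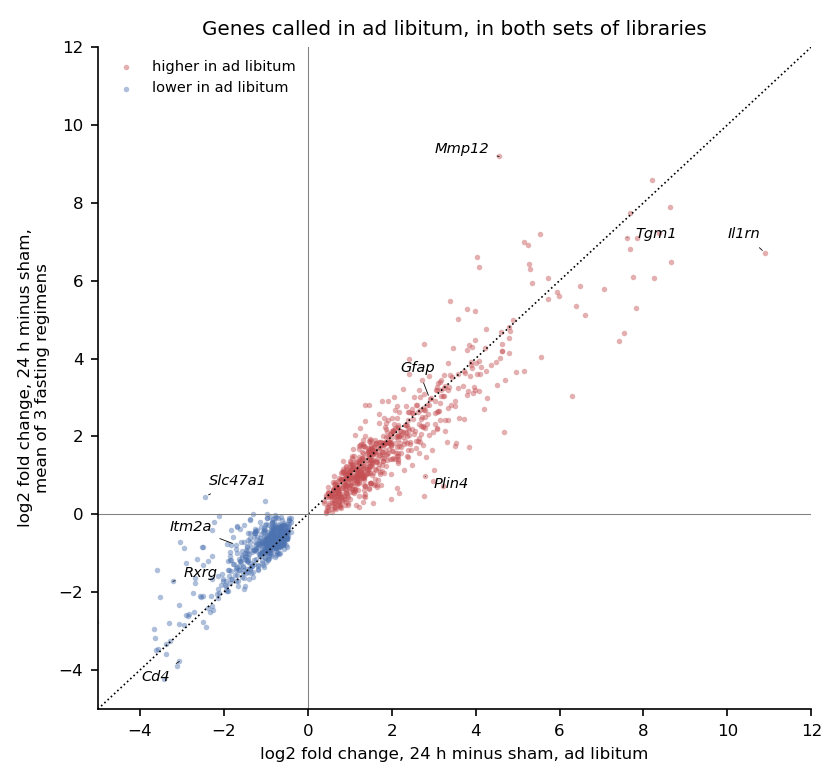
Log2 fold change at 24 h over sham in AL (x axis) against the mean of the 3 fasting regimens (y axis) for each gene called in AL. Genes called higher in AL are red, genes called lower are blue, and the dotted line marks where both axes are equal. Genes not called in AL are not drawn. Red and blue points lie on the same side of zero on both axes with the exception of 3 genes, Slc47a1 among them.

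In the fasted mice Tgm1 had lowest, median and highest values of 0.0516, 0.212 and 0.529 CPM in sham and 3.53, 30.2 and 73.6 CPM at 24 h (7.10 ± 0.60, edgeR adjusted p = 3.77e-08). Gfap had 106, 244 and 321 CPM in sham and 664, 1758 and 2697 CPM at 24 h (2.96 ± 0.22, edgeR adjusted p = 8.95e-09). Drd2 had 15, 60.8 and 84.5 CPM in sham and 1.96, 3.91 and 21.5 CPM at 24 h (-3.19 ± 0.45, edgeR adjusted p = 1.25e-05). Tgm1 and Gfap thus rose and Drd2 fell there too. The 3 called genes with opposite signs were Slc47a1, Lrp8os3 and Pcbd1. Slc47a1 had 0.613, 1.2 and 4.25 CPM in sham and 1.52, 1.96 and 4.79 CPM at 24 h in the fasted mice (0.46 ± 0.30, edgeR adjusted p = 0.226), and the difference of the AL response from the fasting response was -2.92 ± 0.67, edgeR adjusted p = 0.744, not called. Among list members called in AL, Gap43 (-0.26 ± 0.14, edgeR adjusted p = 0.128), Ecel1 (-0.12 ± 0.26, edgeR adjusted p = 0.725) and Fkbp5 (0.47 ± 0.21, edgeR adjusted p = 0.063) were likewise not called in the fasted mice. Interferon-stimulated genes had 19 of 20 called higher in the fasted mice with a median of 2.52, against 1.40 in AL, and reactive astrocyte genes 21 of 21 with a median of 2.78. For the difference of the AL response from the fasting response, 0 of 20 interferon-stimulated genes were called (median -0.97). All 11 shared striatal genes were called lower there, Ppp1r1b included (-1.65 ± 0.29, edgeR adjusted p = 0.000137). Of other neuronal lists, 8 of 12 pan-neuronal, 4 of 11 interneuron, 17 of 21 receptor subunit and 18 of 21 channel genes were called lower there. Cortical genes had 7 lower and 2 higher of 11, beside 23.1% and 25.9% of all genes called lower and higher.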

How the data were processed

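Messenger RNA of mouse brain was sequenced on an Illumina instrument, from frozen tissue of which, per the labels' protocols, samples with an integrity number above 7 were kept. The authors deposited whole-number counts and FPKM values per gene and library in separate tables. Per the submitters' processing notes the authors used CASAVA, TopHat2 and DESeq2 with GRCm38/mm10. Which releases of these tools and of the gene annotation were used, how reads were assigned to genes and whether strand counted is not given in the sources used here. The deposited FPKM values equalled counts divided by gene length and library total, to within a relative deviation of 1.8e-07, and were not tested. Of 35275 gene identifiers, 34490 matched a symbol of GENCODE M21 (GRCm38), which also gave coordinates, 785 did not, and 6816 had no read in any library.

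Groups and replicate numbers came from the titles. Counts were fitted in R 4.3.3 with edgeR 4.0.16 (TMM scaling, filterByExpr, quasi-likelihood F test, Benjamini-Hochberg threshold 0.05). The comparisons of 24 h with sham, 12 h and 72 h used the 18 AL libraries. Same-numbered 72 h and 24 h libraries had deviations from their group means correlated at 0.218, 0.282 and 0.113, so a fit with the number as a block was set beside calls against 72 h that it changed. That pairing comes from the data, since the labels do not say what a number shares. The fasting comparisons used 24 libraries, sham and 24 h under 4 regimens. TMM factors of the 6 libraries ran from 0.941 to 1.094. Counts of 2 libraries of 1 group differed by a chi-square of 17.9 to 68.6 per gene, beyond sampling noise, so all were kept. On simulated counts of 16452 genes for 24 h against sham, 200 genes were given a change. Of these, 47% of genes changed 2-fold and 83% changed 4-fold were called, with 4 false calls among the other genes. Each gene was drawn on its own, without shifts shared by a whole library, so this gives no false-call rate for the real calls.

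The members and the gene lists were chosen with earlier results of these data known. Named genes were called, did not overlap between groups and averaged at least 5 CPM in the higher group; they are the 10 largest rises and falls on the log2 scale, the 5 largest in CPM and the 3 with the smallest p each way, 34 genes in all, of which some are not reported here. Of 741 list entries 3 matched no gene. A gene without reads in sham was set at a floor of 3 reads per library, and counting intervals of ratios are exact at 95% and cover counting error only. DESeq2 1.42.0, other scalings and filters, other sets of libraries, a replicate block and leaving out each library were tried as alternatives.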

Additional observations from a re-analysis of the deposited data

How the results depend on the processing

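Of 34 named genes, 21 kept their call in every alternative, and over 442 values 392 stayed on the same side of the threshold, 50 no longer passed it and none changed direction. The count for 24 h against sham was 1161, against 1817 with DESeq2 (1156 of them shared), 1143 with median-ratio scaling, 1367 without a filter on low counts, 1042 with a filter at 1 CPM, 1388 with all 72 libraries and 1265 with the 6 libraries alone, and 276 to 1301 without 1 library. The share of calls that were higher was 57.5%, 66% with the 6 libraries alone and 47.3% without sham replicate 2. For 24 h against 72 h the count was 427, against 849 with DESeq2, 854 with all 72 libraries, 17 with the groups alone, and 73 to 773 without 1 library. For 24 h against 12 h it was 0, against 54 with DESeq2, 4 without a filter and 0 to 3 without 1 library. The fasting count was 8166, and 7387 to 8520 without 1 library. The AL response against the fasting mean gave 0, against 4 with DESeq2 and 0 to 2 without 1 library. Same-numbered sham and 24 h libraries had deviations from their group means correlated at -0.293, 0.031 and -0.149, and those of 12 and 24 h at -0.527, -0.153 and -0.331, so the numbers do not pair these groups, and no sham library correlated best with its own number. With a replicate block the counts were 850 for 24 h against sham, 0 against 12 h, 294 against 72 h, 7904 in the fasted mice and 0 for the difference of responses, and the calls against 72 h that it changed stand with their results. Of the medians of 56 lists, 12 changed sign under some alternative, among them thalamus, choroid plexus, cell cycle and oligodendrocytes, and the cause was not tested. The 3 libraries of a group limit the precision of every value, and genes with few sham reads have ratios known only within wide counting intervals.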
